A study of Mus musculus with 6 samples.

Results

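The centromere-proximal ends of the 19 mouse autosomes are the first sequenced stretch of each chromosome, just after the gap left for the centromere. Their members were all 2 kb tiles of chromosomes 1 to 19 that start after 3 Mb and before 4.9 Mb in the NCBIM37 build, chosen by position alone. These were 18050 of the 1327469 tiles of the genome, 950 on each autosome, and they were compared with the 95000 autosomal tiles between 10 and 20 Mb. ChIP-seq for H3K9me2, H3K27me3 and H3K9me3 had been done in mouse embryonic stem cells (ESCs) of 2 genotypes, 1 library for every combination of mark and genotype. The Dicer KO ESCs (Dicer -/-) carry a constitutive CRISPR/Cas9 deletion of Dicer, made in cells with floxed Dnmt1 and grown out from single-cell colonies. The Dicer KO/Dnmt1 cKO ESCs (Dicer/Dnmt1 -/-) have in addition lost Dnmt1 through a Cre recombinase that is switched on by tamoxifen. All 6 libraries thus come from cells without Dicer, cultured in serum with LIF, and no ChIP-seq library with intact Dicer enters the comparison. The labels give the strain as E14, whereas the study's methods describe C57BL/6 cells with loxP-flanked Dnmt1, and the time after Dnmt1 deletion is not given in the labels.

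Mouse chromosomes have their centromere at one tip. The centromere itself lies on minor satellite repeats, and the flanking pericentric heterochromatin on long arrays of the AT-rich major satellite. In most cell types these arrays are packed in heterochromatin that carries H3K9me3, placed by the SUV39H enzymes, and dense DNA methylation that DNMT1 maintains through cell division. H3K9me2 is placed over broad silent domains mainly by G9a and GLP, and H3K27me3 is placed by the Polycomb complex PRC2 at developmental genes. Nearly all of the satellite DNA is missing from the reference assembly, so the ends hold the last unique sequence before it and a few satellite units that were assembled.

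The libraries held from 16834940 reads (H3K9me2, Dicer KO) to 27162045 reads (H3K27me3, Dicer KO), with medians of 13 to 18 reads per tile. A level is the mean number of reads per tile divided by the mean over all tiles of the library, so that 1 is the genome mean. A change is the log2 of the level in the Dicer KO/Dnmt1 cKO over that in the Dicer KO. Intervals are 95% intervals that cover counting error only. They treat every read as independent, which PCR copies are not, so they can be too narrow even for that. Since every mark was profiled once in each genotype, differences could not be set against a spread of replicates and p-values are left out. Over the Dnmt1 gene itself (chromosome 9, 20711650 to 20757317) the libraries held 109 and 199 reads in the H3K9me2 pair (Dicer KO first), 129 and 123 in the H3K27me3 pair and 174 and 161 in the H3K9me3 pair, which does not show whether the gene was deleted.

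The first 2 sequences below are shown because the tiles of their array or copy had the highest H3K9me3 levels among the blocks of the ends, and the last one as a diverged copy with lower levels. They were read from the NCBIM37 reference and are written 5′ to 3′ in the orientation of the first one, with each CpG, the site that DNMT1 methylates, in capitals.
Chromosome 9 unit, chr9:3027538-3027771, plus strand: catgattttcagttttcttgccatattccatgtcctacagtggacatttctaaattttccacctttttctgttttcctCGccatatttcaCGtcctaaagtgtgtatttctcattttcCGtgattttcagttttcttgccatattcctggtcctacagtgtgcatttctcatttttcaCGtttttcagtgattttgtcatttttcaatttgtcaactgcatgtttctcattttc
Chromosome 12 copy, chr12:3109872-3110121, minus strand: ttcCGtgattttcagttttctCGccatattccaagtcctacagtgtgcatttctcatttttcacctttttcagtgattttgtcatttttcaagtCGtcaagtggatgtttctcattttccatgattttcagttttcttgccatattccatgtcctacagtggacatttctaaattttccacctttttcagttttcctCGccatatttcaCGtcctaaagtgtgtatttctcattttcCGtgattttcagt
Chromosome 11 copy, chr11:3001925-3002106, plus strand: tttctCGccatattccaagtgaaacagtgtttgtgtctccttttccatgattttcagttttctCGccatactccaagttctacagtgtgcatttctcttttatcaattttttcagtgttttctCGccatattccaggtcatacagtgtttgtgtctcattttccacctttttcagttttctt
The unit from chromosome 9 is 1 of the repeats of an array that runs from the first sequenced base into the tile that starts at 3038001. It matched the next unit at 97.9% of its bases and holds 4 CpGs. In the GENCODE annotation it lies in an intron of the lincRNA Gm16869, which spans the array, and 12 predicted protein-coding genes such as Gm10722 and Gm10718 overlap the same tiles. The copy on chromosome 12 is 250 bp long, holds 6 CpGs, lies in no annotated gene and was 96.4% identical to the unit and 98.0% identical to the closest stretch of the array. The longest match at the start of chromosome 11 covers 182 bp and was more diverged, with 78.0% identity to the unit and 3 CpGs. Satellite tiles were defined as tiles in which at least 1% of all 20-base words also occur in the chromosome 9 array. There were 27 of them in the ends, 20 on chromosome 9, 3 on chromosome 11 and 2 each on chromosomes 4 and 12, against 1 in the 95000 tiles at 10 to 20 Mb. The chromosome 9 tiles except the last meet the definition by construction, because the words come from them. The excess over 10 to 20 Mb is therefore mostly set by the definition.

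H3K9me3 was far above the genome mean at the satellite tiles in both genotypes, and the 3 marks changed there in different directions upon Dnmt1 deletion. In the 20 tiles of the chromosome 9 array, H3K9me3 had 52871 reads in Dicer KO and 56310 in Dicer KO/Dnmt1 cKO cells, which are levels of 193 and 197. H3K9me2 had 8877 and 9129 reads there, or levels of 35.0 and 29.6. H3K27me3 had 6328 and 7284 reads, or levels of 15.5 and 22.7. The level of H3K9me3 was thus several times that of either other mark, and the array alone held 16.1% of all H3K9me3 reads of the ends in the Dicer KO. The log2 change of H3K27me3 was 0.56 (interval 0.51 to 0.60), that of H3K9me2 was −0.24 (−0.29 to −0.20), and that of H3K9me3 was 0.031 (0.013 to 0.048). H3K27me3 was higher in 18 and lower in 2 of the 20 tiles, whereas H3K9me2 was higher in 2, lower in 17 and without reads in both libraries in the remaining tile. Among the 16 array tiles that belong to the 0.1% with most reads, H3K27me3 was higher in 16 of 16 and H3K9me2 lower in 16 of 16. For H3K9me2 some of their single intervals included 0, as in the tile that starts at 3036001 (−0.17, interval −0.37 to 0.025). These tiles hold the same repeat and share 1 pair of libraries per mark, so they are not separate measurements.

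Reads were unevenly spread along the array, although every tile in it except the last consists of satellite throughout. In the Dicer KO the tile at 24 to 26 kb from the first sequenced base held 10099 H3K9me3 reads, a level of 738, while 4 adjoining tiles from 6 to 14 kb held 64 H3K9me3 reads in all. Reads of low mapping quality were discarded before deposit, and the part of that step in the difference between tiles was not tested. Directly after the array the signal ended. The next 100 kb of chromosome 9 had an H3K9me3 level of 1.38 in Dicer KO cells and 1.23 in Dicer KO/Dnmt1 cKO cells.

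The isolated copy on chromosome 12 had changes in the same directions for H3K27me3 and H3K9me2. It lies across the border of the tiles that start at 3108001 and 3110001, so reads near it fell in both. These 2 tiles held 13650 and 14279 H3K9me3 reads (levels of 499 and 501), 2297 and 2333 H3K9me2 reads (90.6 and 75.5), and 1747 and 1956 H3K27me3 reads (42.7 and 61.0). The log2 change was 0.52 (0.42 to 0.61) for H3K27me3, −0.26 (−0.35 to −0.18) for H3K9me2 and 0.0046 (−0.029 to 0.038) for H3K9me3. All 3 intervals overlapped those of the chromosome 9 array. The 100 kb before the pair had H3K9me3 levels of 0.703 and 0.759, and the 100 kb after it 1.14 and 1.10. The more diverged tiles were nearer to the genome mean. The 3 satellite tiles of chromosome 11 had H3K9me3 levels of 11.1 and 11.9 and the 2 of chromosome 4 had 8.34 and 8.87, and with 80 and 58 H3K27me3 reads in the Dicer KO their H3K27me3 changes of 0.32 (−0.13 to 0.77) and 0.49 (−0.019 to 1.01) had intervals that included 0.

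Satellite tiles elsewhere in the genome give a measurement from different positions. The 17 such tiles outside the ends held 809179 H3K9me3 reads in the Dicer KO, 4.46% of that library, and 871524 in the Dicer KO/Dnmt1 cKO. A single tile held 598197 of those in the Dicer KO, so the summed values rest mostly on 1 position. The log2 change over the 17 tiles was 0.55 (0.54 to 0.56) for H3K27me3, −0.32 (−0.34 to −0.31) for H3K9me2 and 0.047 (0.042 to 0.051) for H3K9me3. The directions matched those in the ends, but reads from unassembled satellite may reach both sets of tiles, so they are not independent. Other tiles among the 0.1% with most reads differed by place. Over 1224 such tiles outside the ends without satellite words, the H3K27me3 change was −0.33 (−0.34 to −0.32). In the ends, the 35 such tiles outside the satellite and the chromosome 11 block described next had an H3K27me3 change of 0.11 (0.032 to 0.20), with 25 of 35 higher, and an H3K9me2 change of 0.010 (−0.080 to 0.10). Among them, the 15 tiles of chromosome 16 had an H3K27me3 change of 0.24 (0.096 to 0.38), and the 5 tiles of chromosome 18 had 0.18 (−0.0084 to 0.37) with an H3K9me2 change of −0.14 (−0.35 to 0.072). Input DNA was not used here, so marks per unit and the number of unassembled units that send reads to the satellite tiles cannot be told apart.

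**Figure D1:**
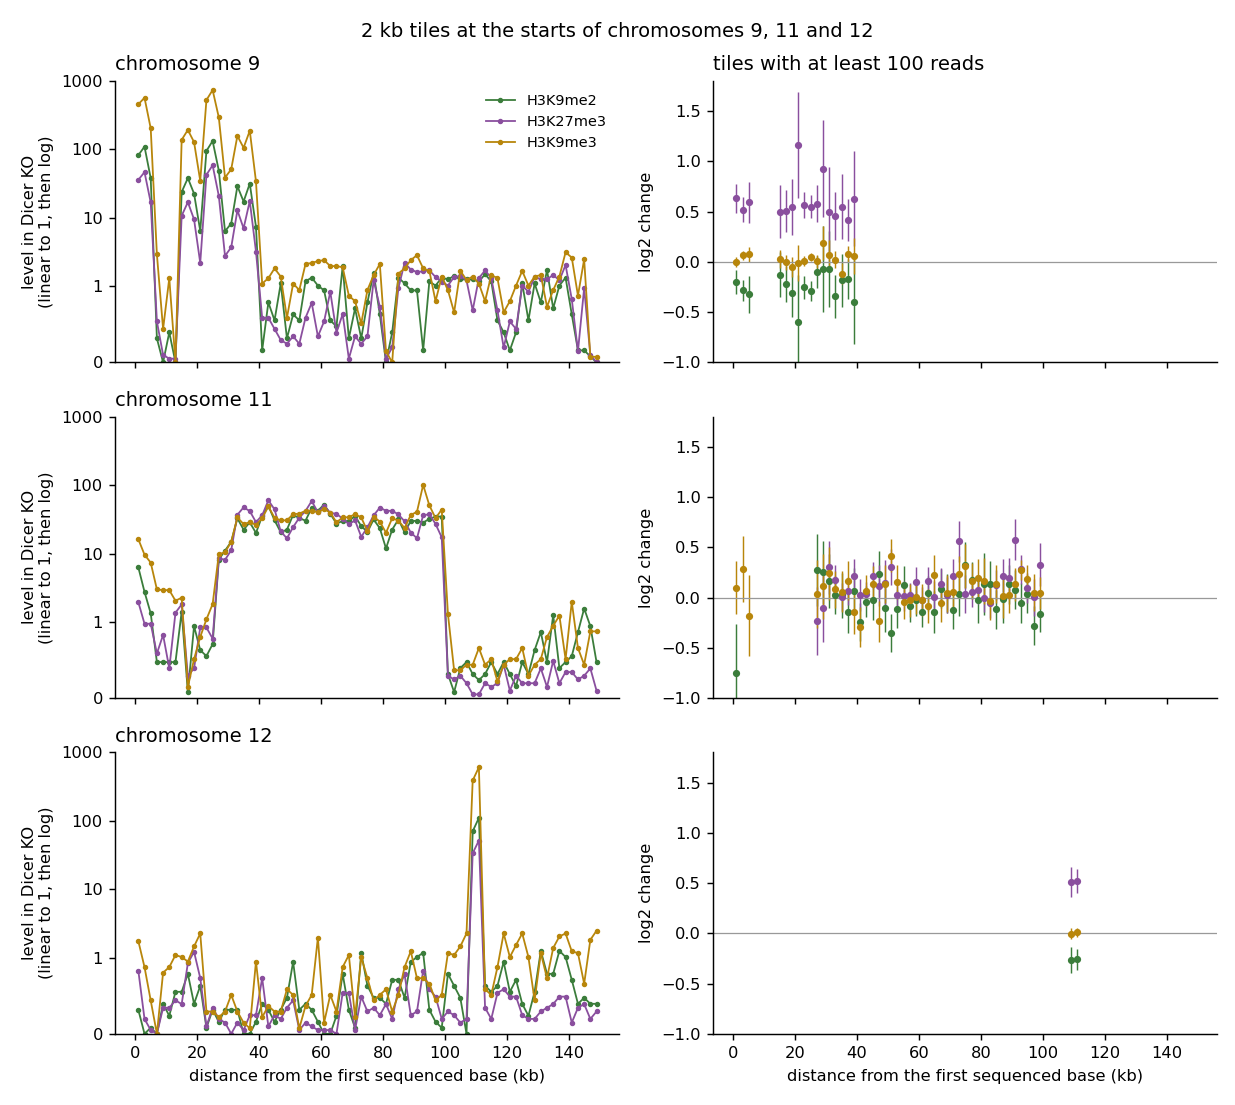
Levels in the Dicer KO (left, genome mean = 1, axis linear up to 1 and logarithmic above) and log2 changes with 95% counting intervals (right, tiles with at least 100 reads over both libraries) for each 2 kb tile in the first stretch of chromosomes 9, 11 and 12. The array at the start of chromosome 9 and the pair of tiles on chromosome 12 have H3K9me3 far above the other marks and H3K27me3 changes above 0 with H3K9me2 changes mostly below 0, while the block on chromosome 11 has the 3 marks at like levels.

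Chromosome 11 held a second kind of tile with very many reads. A block of 37 tiles from 3026001 to 3100000 covers Sfi1, which encodes a centrosomal protein, and part of Drg1, a GTPase gene, with the pseudogenes Pisd-ps1 and Fau-ps2. All 3 marks were high in it at like levels. The level of H3K9me2 was 29.1 in the Dicer KO and 28.7 after Dnmt1 deletion. H3K27me3 stood at 32.7 and 35.3, and H3K9me3 at 34.6 and 36.8. The levels of single tiles in the Dicer KO ranged from 8.20 to 51.9 for H3K9me2 and from 9.80 to 101 for H3K9me3. The log2 change was −0.018 (−0.051 to 0.014) for H3K9me2, 0.11 (0.084 to 0.14) for H3K27me3 and 0.091 (0.062 to 0.12) for H3K9me3. Input DNA was not used here, so the part of sequence copy number in these levels was not tested.

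Across all ends, these few tiles decided whether H3K9me3 was higher or lower than at 10 to 20 Mb. With all tiles, H3K9me3 was 1.26 times (1.25 to 1.26) as high at the ends as at 10 to 20 Mb in Dicer KO cells and 1.28 times (1.28 to 1.29) in Dicer KO/Dnmt1 cKO cells. The 0.1% of tiles with most reads were then left out. They numbered 1328 in the genome and 94 in the ends, of which 40 were on chromosome 11, 16 on chromosome 9, 15 on chromosome 16, 8 on chromosome 4, 5 on chromosome 18, 3 each on chromosomes 13 and 17, and 2 each on chromosomes 6 and 12. The 15 tiles of chromosome 16, between 3232001 and 3272000, had levels of 3.72 (H3K9me2), 2.64 (H3K27me3) and 4.38 (H3K9me3) in the Dicer KO. Without all of the 0.1% of tiles with most reads the H3K9me3 ratios were 0.936 and 0.943, so the ends in sum lay below 10 to 20 Mb. That sum includes the nearly empty end of chromosome 14 described next. By the intervals of single ends, 7 of 19 lay above 10 to 20 Mb and 6 below in Dicer KO cells. In Dicer KO/Dnmt1 cKO cells 9 lay above and 7 below. For H3K9me2 the ratio was 0.933 in Dicer KO cells and 0.942 in Dicer KO/Dnmt1 cKO cells with all tiles, and 0.833 and 0.848 without those with most reads. For H3K27me3 it was 0.969 and 0.994 with all tiles, and 0.880 and 0.886 without. Tiles with most reads made up 0.521% of end tiles and 0.171% of tiles at 10 to 20 Mb.

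The end of chromosome 14 was nearly empty in all 6 libraries. Its H3K9me2 levels were 0.102 and 0.0977, its H3K27me3 levels 0.139 and 0.126, and its H3K9me3 levels 0.106 and 0.0988, against 1.15, 1.00 and 1.22 at 10 to 20 Mb of the same chromosome in the Dicer KO. Of its 950 tiles, 339 held no read in any library. This end is a cluster of near-identical predicted genes, and 95.4% of its 31-base words recur within the first 20 Mb of the chromosome, against 17.3% over all ends. The part of repeated sequence in the low levels was not tested. Leaving chromosome 14 out of both regions, with the tiles with most reads kept, raised the H3K27me3 ratio above 1. It was then 1.02 in Dicer KO cells and 1.04 in Dicer KO/Dnmt1 cKO cells, and the H3K9me2 ratio was 0.984 and 0.993. The satellite tiles and the chromosome 11 block, kept here, held 9.80% and 11.2% of the H3K27me3 reads of all ends in the same order.

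The remaining 18 ends differed from each other. In the Dicer KO, without the tiles with most reads, H3K9me2 was lowest on chromosomes 19 (level 0.658), 7 (0.660), 16 (0.711) and 11 (0.743) and highest on chromosomes 17 (1.23) and 2 (1.17). Upon Dnmt1 deletion the levels of these ends were 0.737, 0.726, 0.747, 0.851, 1.21 and 1.15, in the same order. H3K27me3 was highest on chromosomes 2 (1.32 and 1.29 in the 2 genotypes) and 17 (1.20 and 1.22) and lowest on chromosome 16 (0.576 and 0.611). H3K9me3 was highest on chromosomes 3 (1.29 and 1.20), 18 (1.21 and 1.18) and 10 (1.21 and 1.17) and lowest on chromosome 19 (0.741 and 0.752). With all tiles, chromosome 9 stood at 5.22 and 5.26 for H3K9me3, and chromosome 11 at 2.14 and 2.27. The median of the 19 H3K9me3 ratios to 10 to 20 Mb was 1.03 in Dicer KO cells and 1.05 in Dicer KO/Dnmt1 cKO cells with all tiles, and 1.00 and 1.01 without those with most reads. Over the 19 ends without the tiles with most reads, the level of H3K9me2 in the Dicer KO fell with the number of protein-coding gene starts per Mb (Spearman rho = −0.846, and −0.845 over 18 ends without chromosome 14). All points share the same pair of libraries, and gene-rich ends also differ in GC content.

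**Figure D2:**
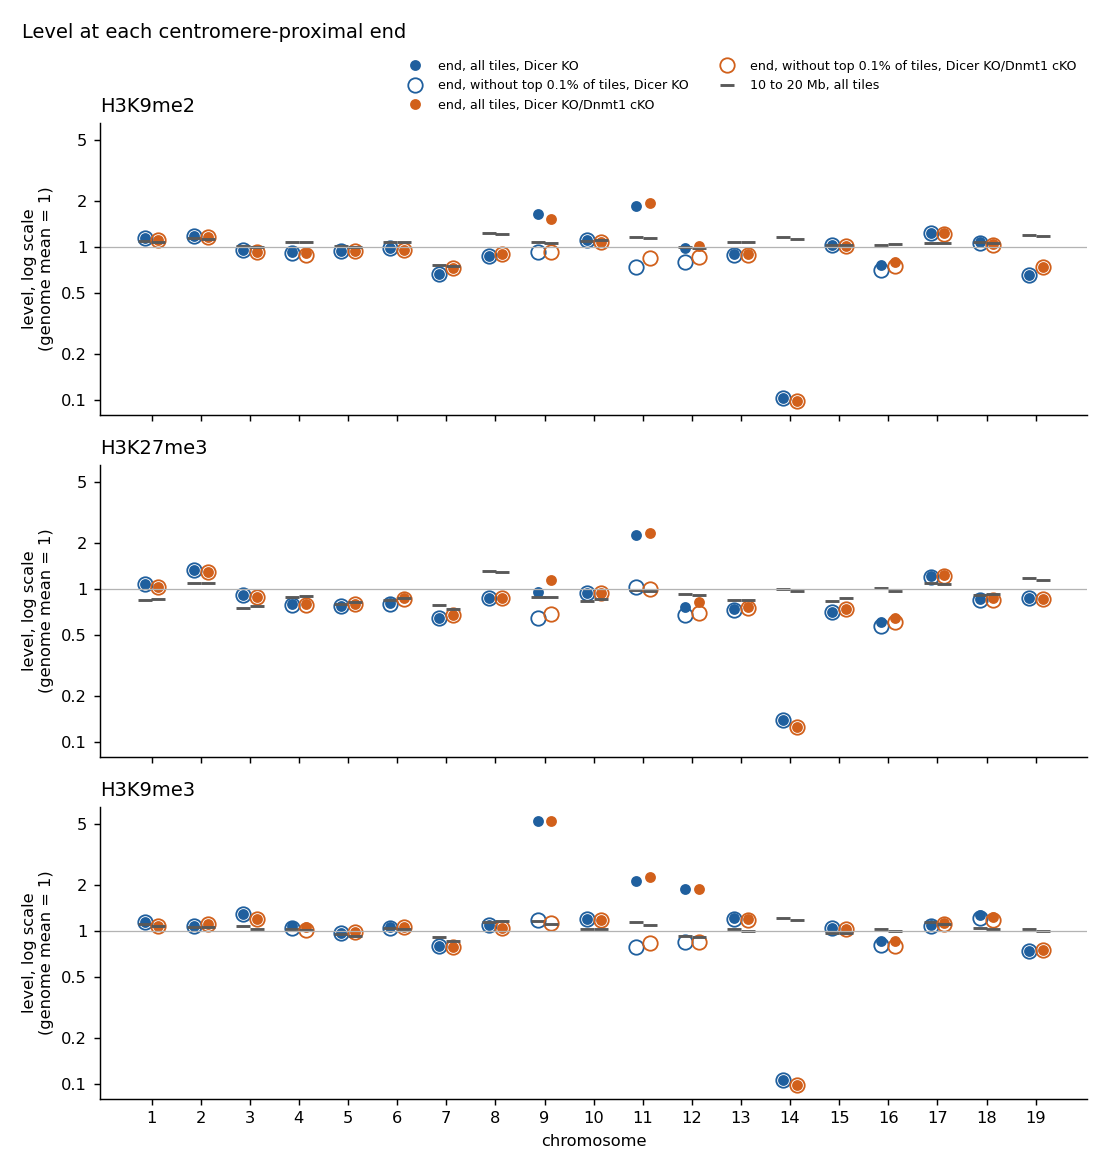
Level of each mark at the end of each autosome (log axis, genome mean = 1) with all tiles (filled circles) and without the 0.1% of tiles with most reads (open circles) in the Dicer KO (blue) and the Dicer KO/Dnmt1 cKO (orange), with the level at 10 to 20 Mb as grey bars. Filled and open circles part on chromosomes 9, 11 and 12, and chromosome 14 lies near 0.1 for every mark.

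Levels of H3K9me2 and H3K27me3 rose with distance from the centromere over the first Mb. Without chromosome 14 and the tiles with most reads, the first 100 kb had an H3K9me2 level of 0.588 in Dicer KO cells and 0.566 in Dicer KO/Dnmt1 cKO cells. The level was 0.820 and 0.831 from 100 to 500 kb, 0.961 and 0.979 from 500 kb to 1 Mb, and 1.00 and 1.01 from 1 to 1.5 Mb. H3K27me3 went from 0.592 and 0.593 in the first 100 kb to 0.929 and 0.922 at 1 to 1.5 Mb. H3K9me3 was 0.932 and 0.910 in the first 100 kb and 1.05 and 1.04 at 1 to 1.5 Mb. The first 100 kb held 80 tiles without any read among 833, and 23.9% of its 31-base words were repeated, against 11.5% at 1 to 1.5 Mb. The part of repeats in the low levels was not tested. Single ends varied widely in the first 100 kb, from 0.0189 to 1.19 for H3K9me2 and from 0.0746 to 2.15 for H3K9me3 in the Dicer KO.

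**Figure D3:**
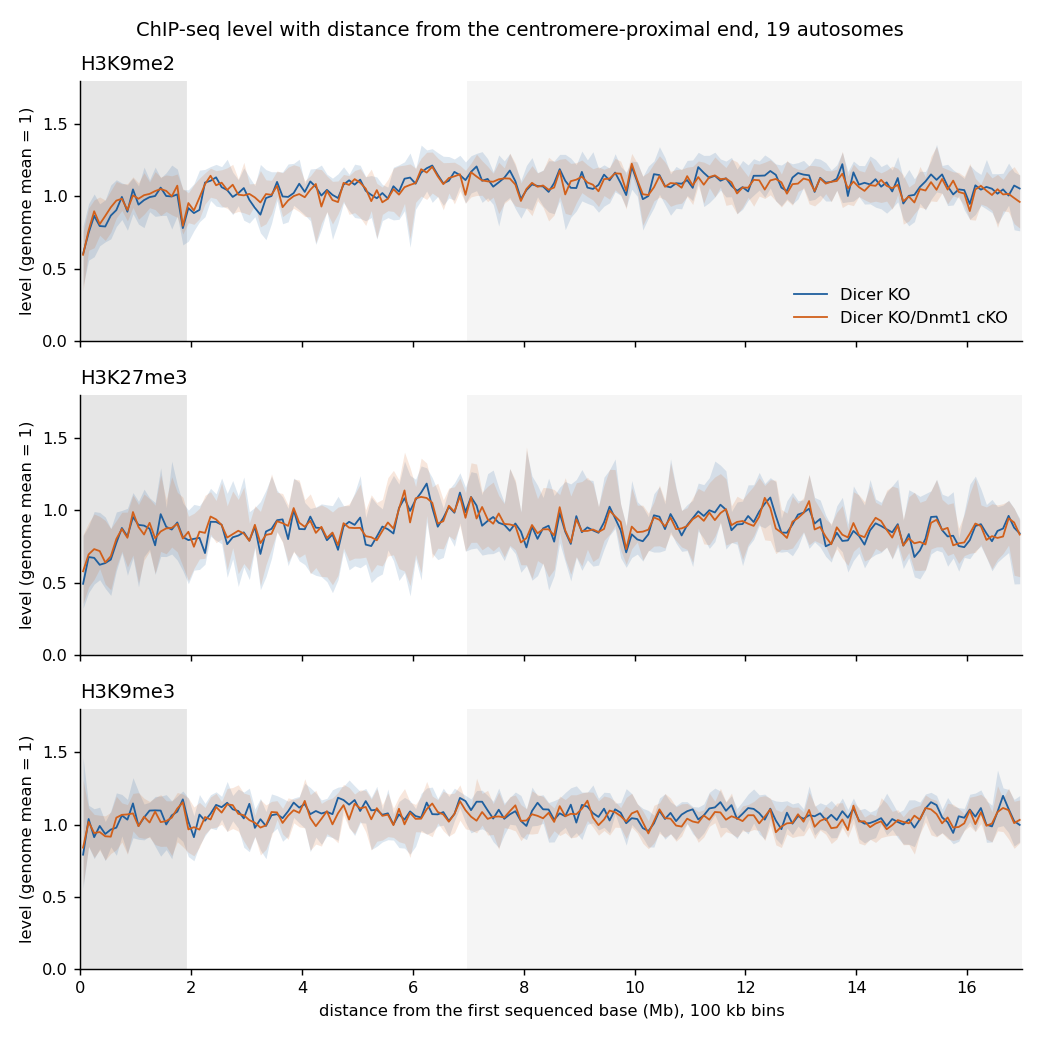
Median level over the 19 autosomes in 100 kb bins (lines) with the quartiles (bands) against distance from the first sequenced base, without the 0.1% of tiles with most reads. The dark band marks the ends and the pale band 10 to 20 Mb of the chromosome. The medians of H3K9me2 and H3K27me3 start at 0.602 and 0.492 in the first bin of the Dicer KO and climb over the first Mb, and the lines of the 2 genotypes run close together.

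Summed over all ends, the marks changed little upon Dnmt1 deletion. H3K9me2 had 228813 reads in Dicer KO cells and 278862 in Dicer KO/Dnmt1 cKO cells, a log2 change of 0.00096 (−0.0070 to 0.0089). H3K27me3 had 336166 and 269876 reads, a change of 0.035 (0.028 to 0.042). H3K9me3 had 329188 and 342142 reads, a change of −0.0047 (−0.012 to 0.0022). At 10 to 20 Mb the changes were −0.013 for H3K9me2, −0.0013 for H3K27me3 and −0.032 for H3K9me3. The difference between the ends and 10 to 20 Mb was 0.014 (0.0049 to 0.022), 0.036 (0.028 to 0.044) and 0.027 (0.020 to 0.035), respectively. Without the tiles with most reads these differences were 0.027 (0.018 to 0.036), 0.011 (0.0024 to 0.019) and 0.011 (0.0027 to 0.020).

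Single ends changed by more, in both directions. The change of H3K9me2 had an interval above 0 at 6 of 19 ends and below 0 at 4. Among 1240 windows of the same length over the other autosomal tiles, 27.3% lay above 0 and 31% below. A counting interval that excludes 0 is thus common elsewhere on the autosomes. For H3K27me3 the counts were 8 above and 4 below, beside 29.4% and 26.6% of the other windows. For H3K9me3 they were 2 above and 6 below, beside 32.3% and 31.5%. Without the tiles with most reads the counts were 6 and 4 for H3K9me2 (27.7% and 30.9% of the other windows), 7 and 5 for H3K27me3 (30.1% and 25.7%), and 2 and 6 for H3K9me3 (32.2% and 31.2%).

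Without the tiles with most reads, the ends that rose most in H3K9me2 were those of chromosomes 11, 19, 7 and 12. With all tiles the order was 19, 7, 11 and 16, with chromosome 16 at 0.065 (0.026 to 0.10). Chromosome 19 had 7928 reads in Dicer KO cells and 10814 in Dicer KO/Dnmt1 cKO cells, a change of 0.16 (0.12 to 0.21), and chromosome 7 had 7957 and 10656 reads, a change of 0.14 (0.095 to 0.18). Chromosome 11 changed by 0.066 (0.041 to 0.091) with all tiles and by 0.20 (0.16 to 0.24) without its 40 tiles with most reads, whose reads outnumber those of the rest of the end. Chromosome 12 changed by 0.047 (0.012 to 0.081) with all tiles and by 0.11 (0.073 to 0.15) without its satellite pair. At 10 to 20 Mb, chromosomes 11, 19, 7 and 12 changed by −0.020, −0.020, −0.012 and −0.032. The end of chromosome 9 fell by 0.11 in H3K9me2 with all tiles and had a change of −0.013 (−0.049 to 0.024) without those with most reads. Its H3K27me3 change was 0.26 (0.23 to 0.29) with all tiles and 0.081 (0.043 to 0.12) without. H3K27me3 without those tiles was highest on chromosome 6, with 15520 and 13101 reads and a change of 0.11 (0.074 to 0.14), and lowest on chromosome 14, where it rests on 2711 and 1916 reads (−0.15, interval −0.23 to −0.064). For H3K9me3 without those tiles, chromosome 3 changed by −0.11 (−0.14 to −0.074) and chromosome 11 by 0.081 (0.041 to 0.12).

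**Figure D4:**
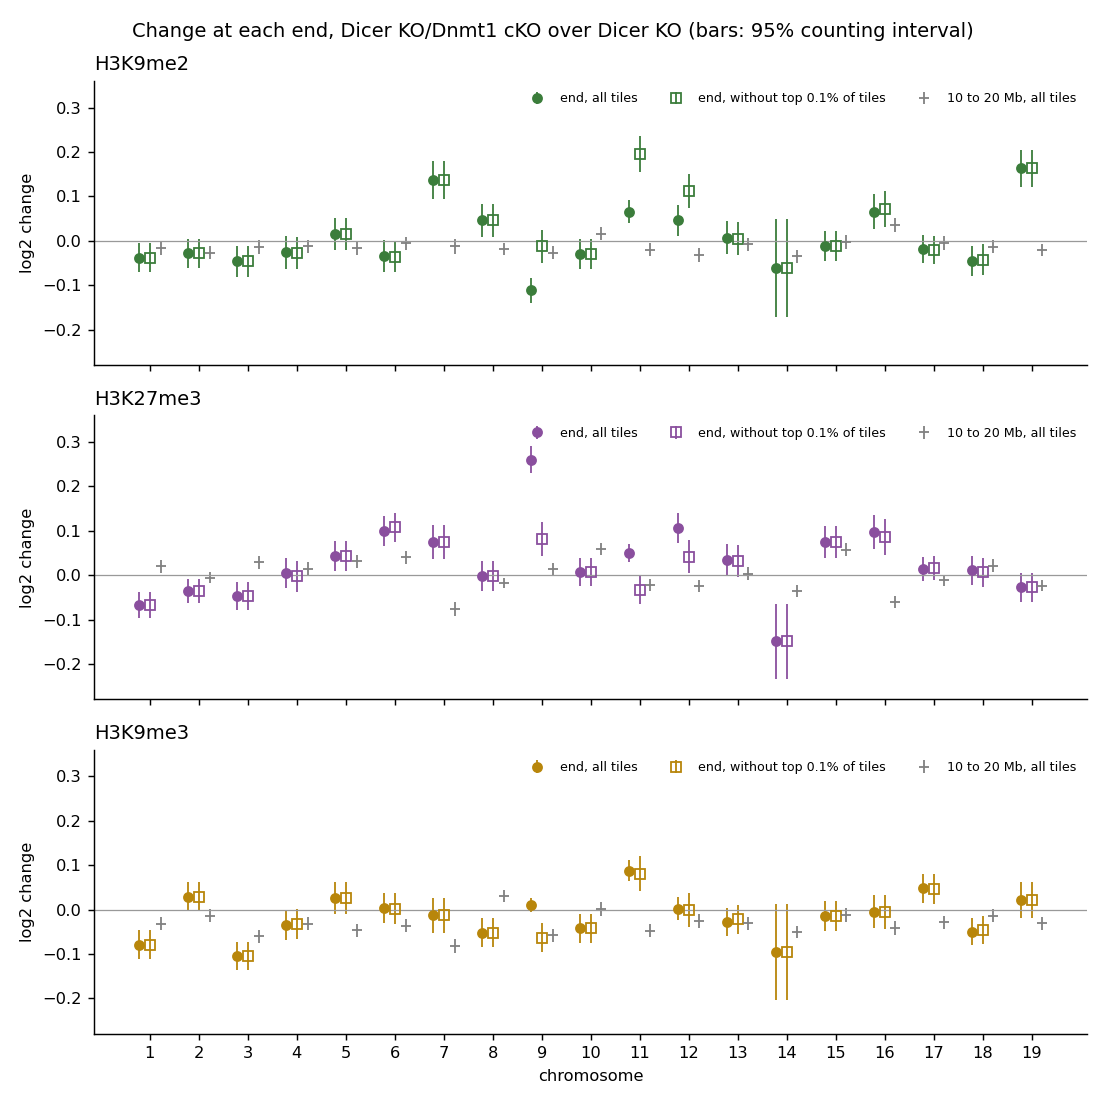
Log2 change of each mark at each end with all tiles (filled circles) and without the 0.1% of tiles with most reads (open squares), and at 10 to 20 Mb of the same chromosome (grey); bars are 95% counting intervals. The chromosome 9 end moves from 0.26 to 0.081 for H3K27me3 when the tiles with most reads are left out, and the chromosome 11 end from 0.066 to 0.20 for H3K9me2.

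The H3K9me2 change rose with GC content, at the ends as in the rest of the autosomes, and at the ends also with gene density. The GC content of the ends ran from 38.3% (chromosome 3) to 46.8% (chromosome 19), and the 4 ends that rose most without the tiles with most reads had 46.5% (chromosome 11), 46.8% (chromosome 19), 45.2% (chromosome 7) and 43.9% (chromosome 12). Over the 19 ends without the tiles with most reads, the change of H3K9me2 had a Spearman rho with GC content of 0.653. With protein-coding gene starts per Mb the rho was 0.693. Over 18 ends without chromosome 14 these values were 0.740 for GC content and 0.860 for gene starts. Over 1236 windows of the same length elsewhere on the autosomes the rho with GC content was 0.665. Among these windows, the 104 with a GC content of 46% to 48% had a median H3K9me2 change of 0.10, with 95% of them between −0.066 and 0.23, and the ends of chromosomes 11 and 19 lay within that range. By single tiles with a GC content of 50% to 55%, the change was 0.16 (0.12 to 0.21) over 859 end tiles and 0.14 over the other autosomal tiles. For H3K27me3 the rho with GC content was −0.0860 over the ends and −0.0499 over the other windows. By single tiles with a GC content of 55% to 60%, though, its change was −0.20 (−0.26 to −0.14) over 238 end tiles and −0.22 over the other autosomal tiles. At 30% to 35% the H3K27me3 change was 0.068 (0.031 to 0.10) and 0.060, in the same order. For H3K9me3 the rho was 0.528 over the ends and 0.728 over the other windows. End tiles with a GC content of 45% to 50%, however, had an H3K9me3 change of −0.0091 (−0.028 to 0.0096) where other autosomal tiles had 0.049. The points of each comparison share libraries and depth, and the part of base composition in the changes was not tested.

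**Figure D5:**
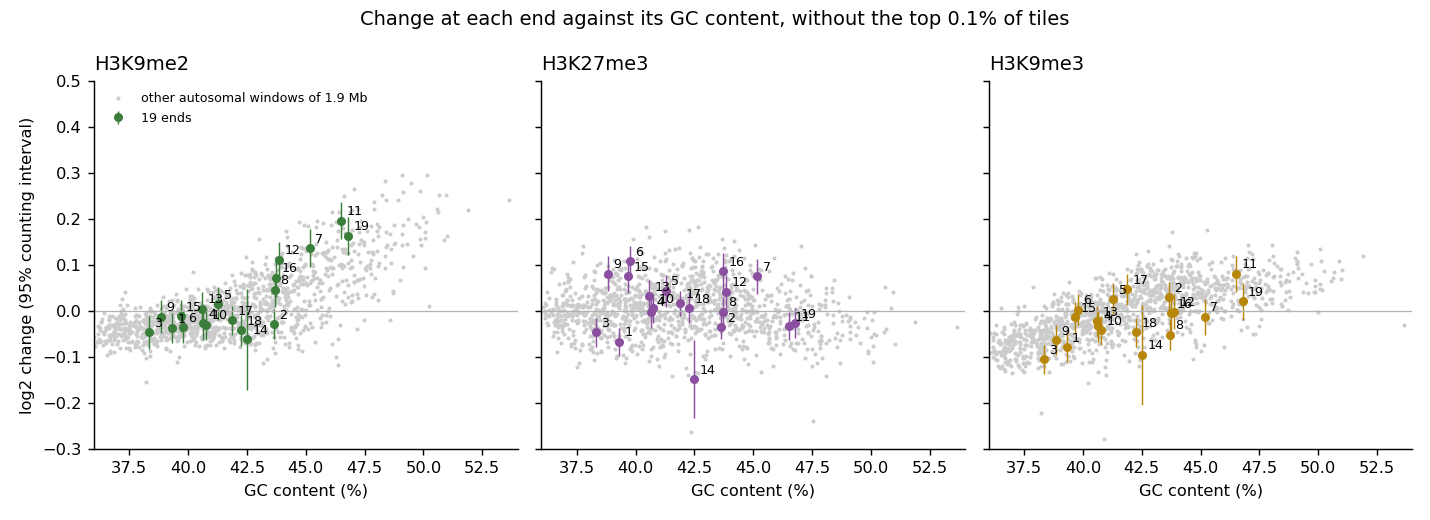
Log2 change of each mark at the 19 ends (coloured points with 95% counting intervals, numbered by chromosome) against GC content, without the 0.1% of tiles with most reads, over 1236 windows of the same length elsewhere on the autosomes (grey). The cloud of other windows slopes upward for H3K9me2 and H3K9me3. Only chromosome 11 for H3K9me2 and chromosome 14 for H3K27me3 lie outside the central 95% of 1240 such windows taken over all GC contents. That range is not matched for GC content. The end of chromosome 14 has the widest intervals.

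By single tiles, the share that differed at least 2-fold was near that of the genome. Of 11723 end tiles with a mean of at least 10 H3K9me2 reads, 904 differed at least 2-fold, or 7.71% (Wilson interval 7.24% to 8.21%), against 7.03% of all tiles of the genome. The share was 7.21% of 11316 end tiles for H3K27me3, against 5.99%, and 7.21% of 12556 end tiles for H3K9me3, against 7.48%. For H3K27me3 the share at 10 to 20 Mb was 6.90%, closer to that of the ends than to that of the genome. Of the H3K9me2 tiles, 548 were higher in the Dicer KO/Dnmt1 cKO (4.06% of all tiles of the genome were) and 356 lower (2.97%). For H3K27me3, 420 were higher (3.09%) and 396 lower (2.9%), and for H3K9me3, 496 were higher (4.07%) and 409 lower (3.42%). Chromosomes 7 and 11 had the largest shares of higher H3K9me2 tiles among the ends. At the end of chromosome 11, 45 of 543 tiles were higher (8.29%) and 5 lower (0.921%). At the end of chromosome 7, 45 of 422 were higher (10.7%) and 18 lower (4.27%), beside 4.06% and 2.97% of all tiles of the genome.

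In windows of 100 kb, the highest levels of H3K9me2 and H3K9me3 were those of the 3 windows with satellite tiles or the Sfi1 block, on chromosomes 9, 11 and 12. Of 345 windows with at least 200 H3K9me2 reads, 49 had an interval above 0 and 33 below, beside 14.5% and 8.45% of such windows elsewhere on the autosomes. H3K27me3 was above 0 in 61 and below in 31 of 350 windows (16.4% and 11.6% elsewhere), and H3K9me3 above in 16 and below in 31 of 347 (8.54% and 8.27% elsewhere). H3K9me2 rose most in windows of chromosome 7. The window of Nlrp12 and Myadm had 265 and 440 reads (change 0.45, interval 0.23 to 0.67), and that of Suv420h2, which encodes a histone H4K20 methyltransferase of heterochromatin, had 297 and 478 (0.40, 0.19 to 0.61). It fell most in the array window of chromosome 9 and then in a window inside Xkr4 on chromosome 1 (838 and 870 reads, −0.23, interval −0.37 to −0.093) and one without genes on chromosome 3 (641 and 668 reads, −0.22, interval −0.38 to −0.069). The third highest H3K27me3 level, 2.76 in Dicer KO cells and 2.41 in Dicer KO/Dnmt1 cKO cells, was in the Osbp2 window of chromosome 11. For H3K27me3 the windows that rose most were the array window of chromosome 9, the window of Lypla1 and Tcea1 on chromosome 1 (226 and 248 reads, 0.49, interval 0.23 to 0.75) and the satellite window of chromosome 12, and the 3 that fell most were all on chromosome 14 with 146 to 347 reads per library. H3K9me3 rose most in the window of Patz1 and Limk2 on chromosome 11 (437 and 553 reads, 0.28, interval 0.098 to 0.46). The next lies on chromosome 14 (178 and 222 reads, 0.26, interval −0.026 to 0.54). It fell most in 2 windows of chromosome 14 with 99 to 151 reads per library and in one without genes on chromosome 10 (1090 and 915 reads, −0.31, interval −0.44 to −0.19).

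The ends wholly contain 432 protein-coding genes, and none of those with at least 200 reads reached a 2-fold change in any mark. Such changes were rare over all protein-coding genes too. For H3K9me2, 1 was higher and 0 lower of 10306, for H3K27me3 2 and 15 of 11680, and for H3K9me3 0 and 4 of 10463. Of 198 such genes for H3K9me2, 34 had an interval above 0 and 14 below, beside 22.8% and 4.5% of all protein-coding genes. For H3K27me3 the counts were 59 above and 20 below of 213 genes (22.3% and 14.4% of all genes), and for H3K9me3 they were 14 above and 10 below of 200 (10.3% and 4.03% of all genes). H3K9me2 rose most over C330021F23Rik (66 and 134 reads, 0.74, interval 0.31 to 1.16) and its neighbour Camsap3, which encodes a microtubule-binding protein (91 and 166 reads, 0.58, interval 0.21 to 0.95), both on chromosome 8. The third was Eif4enif1 on chromosome 11, which encodes a carrier of the translation factor eIF4E (145 and 259 reads, 0.55, interval 0.26 to 0.85). It fell most over Akr1c6, an aldo-keto reductase gene (209 and 194 reads, −0.39, interval −0.67 to −0.11), and over the array predictions Gm10106 and Gm11168. H3K27me3 rose most over Cluap1, a cilium gene (131 and 169 reads, 0.72, interval 0.39 to 1.05), BC016423 (112 and 144 reads, 0.71, interval 0.36 to 1.07) and Rnf185, a ubiquitin ligase gene (105 and 124 reads, 0.59, interval 0.22 to 0.97), whose levels lay between 0.228 and 0.479 in both genotypes. H3K9me3 rose most over Tcea1, Patz1 and Sec14l4, by 0.42 to 0.44, and fell most over Cd209d (136 and 99 reads, −0.52, interval −0.89 to −0.14), Gm3164 of chromosome 14 and Samd9l. For each mark the 3 highest levels were over the array predictions Gm10718, Gm10717 and Gm10722, up to 633 and 649 for H3K9me3.

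Among the named genes, H3K27me3 fell over 4 with levels well above the genome mean. Fzd1, a Wnt receptor gene, had 289 and 136 reads (levels 3.53 and 2.12, change −0.74, interval −1.03 to −0.44). Cabp7, a calcium-binding protein gene, had 561 and 287 reads (4.57 and 2.98, −0.61, interval −0.82 to −0.41), and Penk, the precursor gene of enkephalins, had 210 and 109 (3.42 and 2.27, −0.59, interval −0.93 to −0.26). Sox17, which encodes an endoderm transcription factor, had 535 and 282 (6.54 and 4.40, −0.57, interval −0.78 to −0.36). Fzd1, Cabp7 and Penk were the 3 that fell most, and Penk, Sox17 and Xkr4 were the 3 of 12 listed developmental and differentiated-cell genes with an H3K27me3 interval below 0, while none was above, beside 14.4% below and 22.3% above over all protein-coding genes with at least 200 reads. The median change of the list was −0.0049, beside 0.039 over all those genes. Col1a2 of the list, with H3K27me3 levels of 1.62 and 1.75, had a change of 0.11 (−0.054 to 0.28). In this list, Xkr4, a membrane protein gene, had changes of −0.13 (−0.20 to −0.068) for H3K9me2, −0.10 (−0.16 to −0.044) for H3K27me3 and −0.10 (−0.17 to −0.037) for H3K9me3.

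Among 5 genes of DNA methylation and chromatin, H3K27me3 had an interval above 0 in 4 and below in 0, with a median change of 0.22, beside 22.3% above, 14.4% below and a median of 0.039 over all protein-coding genes with at least 200 reads. Asxl2, a Polycomb group gene, had 174 and 204 reads (0.58, interval 0.29 to 0.87), Suv420h1, an H4K20 methyltransferase gene, 187 and 187 (0.35, 0.060 to 0.64), Crebbp, an acetyltransferase gene, 377 and 344 (0.22, 0.0090 to 0.43), and Ncoa1, a nuclear receptor coactivator gene, 1029 and 920 (0.19, 0.062 to 0.32). Their H3K27me3 levels were below the genome mean in both genotypes. Dnmt3a, a de novo DNA methyltransferase gene, had an H3K9me2 change of 0.18 (0.016 to 0.34) and an H3K27me3 change of −0.11 (−0.27 to 0.042). Of 6 imprinted genes and neighbours on chromosome 6, H3K27me3 was above 0 over Sgce (533 and 537 reads, 0.36, interval 0.19 to 0.54) and Casd1 (317 and 311 reads, 0.32, interval 0.099 to 0.55), beside 22.3% of all genes. Peg10, a paternally expressed gene derived from a retrotransposon, had H3K9me3 levels of 2.46 and 1.99 (269 and 227 reads, −0.31, interval −0.56 to −0.050), and Calcr, the calcitonin receptor gene, an H3K9me2 change of −0.21 (−0.38 to −0.051). The cytokine genes Lif and Osm had from 18 to 154 reads per library, and no interval excluded 0. Of 4 heterochromatin and centromere genes chosen after their values were seen (Suv39h2, Suv420h2, Cenpo and Morc2a), only Morc2a had an interval that excluded 0, for H3K27me3 (140 and 156 reads, 0.51, interval 0.18 to 0.84).

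The ends also differed from 10 to 20 Mb in features that the choice of tiles did not use. Their GC content was 42.1%, against 40.5% at 10 to 20 Mb and 41.9% over all autosomal tiles, and they held 8.20 CpGs per kb, against 7.02 and 8.51. Protein-coding genes started at 12.2 per Mb in the ends and at 6.38 per Mb at 10 to 20 Mb. The end of chromosome 7 had 31.6 starts per Mb and that of chromosome 3 had 0.526. The period of the major satellite was seen in 20 end tiles, all on chromosome 9, and in 8 tiles at 10 to 20 Mb. Those end tiles were not exactly the tiles of the chromosome 9 array, whose last tile did not show the period. The CENP-B box, the motif of minor satellite that binds the centromere protein CENP-B, was found on either strand in 9 end tiles (0.0499%) and in 29 tiles at 10 to 20 Mb (0.0305%), beside 0.0446% of all autosomal tiles. Of the 18050 end tiles, 572 held no read in any library, against 1421 of the 95000 tiles at 10 to 20 Mb. Weighting 10 to 20 Mb to the GC content of the ends gave an H3K27me3 ratio of 0.912 in Dicer KO cells and 0.947 in Dicer KO/Dnmt1 cKO cells with all tiles.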

How the data were processed

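Sample groups were taken from the labels, 1 library per mark and genotype. The authors trimmed reads and aligned them to NCBIM37 by Bowtie2, keeping those that mapped well, and deposited log2 ratios of observed to expected reads in tiles. The methods speak of 1 kb tiles and the values cover tiles of 2 kb. Removal of duplicates is not described for ChIP-seq. Of 25 value columns, 6 matched the labels and 19 stayed unused. The read number of each tile was worked back from its log2 value, with tiles at 0.9 of a step taken as empty. No library had more than 1 value over 0.1 reads from a whole number. Reads were summed over regions with Python 3.11.15, numpy 2.4.6 and pandas 2.3.3, correlations used scipy 1.17.1, identities edlib 1.3.9.post1 and plots matplotlib 3.10.9. Sequence and genes came from NCBIM37 with GENCODE annotation, whose 22 chromosome lengths equalled those of the values. No test was made, since each group is 1 library; ratios have Poisson intervals and shares Wilson intervals.

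Members, gene lists and windows were chosen with earlier results of these data known. Genes were named by rule: for each mark, of those wholly in the ends with at least 200 reads, the 3 that rose most, the 3 that fell most and the 3 with the highest level, and likewise for 100 kb windows, plus fixed lists. The results of 2 windows that this rule names are not reported here. Alternatives were other comparison regions, scalings, minimums, tile sizes, weights and window lengths, and, chosen after seeing the data, leaving out chromosome 14 or the satellite tiles and the chromosome 11 block. Scripts were tested on simulated data.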

Additional observations from a re-analysis of the deposited data

How the results depend on the processing

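No paired analysis was possible because there was 1 library for every mark in a genotype. For the same reason no replicate could be left out. Ratios of the ends to 10 to 20 Mb are given for the Dicer KO and then the Dicer KO/Dnmt1 cKO. Without the 0.1% of tiles with most reads they were H3K9me2 0.833 and 0.848, H3K27me3 0.880 and 0.886, and H3K9me3 0.936 and 0.943. Without satellite tiles and the chromosome 11 block they were H3K9me2 0.834 and 0.850, H3K27me3 0.877 and 0.885, and H3K9me3 0.938 and 0.946. Without chromosome 14, with the tiles with most reads kept, they were H3K9me2 0.984 and 0.993, H3K27me3 1.02 and 1.04, and H3K9me3 1.33 and 1.36. Against 20 to 30 Mb they were H3K9me2 0.983 and 0.982, H3K27me3 0.942 and 0.968, and H3K9me3 1.37 and 1.37. Against all other autosomal tiles they were H3K9me2 0.937 and 0.937, H3K27me3 0.850 and 0.871, and H3K9me3 1.26 and 1.25. Without tiles that hold no read they were H3K9me2 0.949 and 0.958, H3K27me3 0.986 and 1.01, and H3K9me3 1.28 and 1.30. Without the first 100 kb they were H3K9me2 0.857 and 0.873, H3K27me3 0.893 and 0.904, and H3K9me3 0.994 and 1.00. As a median over the autosomes they were H3K9me2 0.944 and 0.967, H3K27me3 0.943 and 0.936, and H3K9me3 1.03 and 1.05. With 10 to 20 Mb weighted by GC content they were H3K9me2 0.942 and 0.949, H3K27me3 0.912 and 0.947, and H3K9me3 1.25 and 1.27.

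Without the 0.1% of tiles with most reads the log2 change at the ends was 0.015 (H3K9me2), 0.011 (H3K27me3) and −0.020 (H3K9me3), and its difference from the comparison tiles was 0.027 (H3K9me2), 0.011 (H3K27me3) and 0.011 (H3K9me3). Without satellite tiles and the chromosome 11 block the log2 change at the ends was 0.015 (H3K9me2), 0.012 (H3K27me3) and −0.020 (H3K9me3), and its difference from the comparison tiles was 0.028 (H3K9me2), 0.013 (H3K27me3) and 0.012 (H3K9me3). Against 20 to 30 Mb the difference of the log2 changes was −0.00031 (H3K9me2) and 0.0071 (H3K9me3). Against all other autosomal tiles the difference of the log2 changes was 0.00015 (H3K9me2) and −0.0073 (H3K9me3). Without the first 100 kb the log2 change at the ends was 0.014 (H3K9me2), 0.016 (H3K27me3) and −0.018 (H3K9me3), and its difference from the comparison tiles was 0.027 (H3K9me2), 0.017 (H3K27me3) and 0.014 (H3K9me3). As a median over the autosomes the log2 change at the ends was −0.018 (H3K9me2), 0.014 (H3K27me3) and −0.013 (H3K9me3), and its difference from the comparison tiles was −0.0086 (H3K9me2) and 0.016 (H3K27me3). With 10 to 20 Mb weighted by GC content the difference of the log2 changes was 0.055 (H3K27me3). With median scaling the log2 change at the ends was −0.018 (H3K9me3). With TMM-type scaling the log2 change at the ends was 0.0091 (H3K9me2). With no minimum of reads and a pseudocount of 1, the share of end tiles at least 2-fold apart was 11.3% (H3K9me2), 11.8% (H3K27me3) and 9.19% (H3K9me3). With a mean of at least 30 reads, the share of end tiles at least 2-fold apart was 0.541% (H3K9me2), 1.77% (H3K27me3) and 1.10% (H3K9me3). With tiles summed to 10 kb, the share of end tiles at least 2-fold apart was 0.673% (H3K9me2), 1.41% (H3K27me3) and 0.320% (H3K9me3). The cause of these moves was not tested. Of 144 alternatives, 53 left the value within its counting interval or, for counts, within 1.5 times, among them all counts of ends that changed. A further 80 moved the value beyond that. The other 11 reversed the direction of a value whose interval had excluded 1 (ratios) or 0 (changes). The alternatives without chromosome 14 and without satellite tiles and the chromosome 11 block were chosen after seeing the data. At 13 to 18 reads per median tile, single tiles resolve only large differences.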
